A study of Mus musculus with 19 samples.

Results

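The genes described are 7 acyl-CoA thioesterases, Acot1, Acot2, Acot7, Acot8, Acot9, Acot11 and Acot13, of 55536 genes counted in each deposited file. They were chosen by symbol within the family and selected on their levels and knockout differences in an earlier look at these same libraries, so the values below are a description and are no independent support for that choice. The adjusted p-values come from fits over all genes tested. Of 13 genes named Acot with a number, the remaining 6 are Acot3, Acot4, Acot5, Acot6, Acot10 and Acot12, and their values are given beside the 7. All 7 genes passed the filter on low counts, as did 10 of 16 other thioesterases.

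Ventricular tissue of mice was profiled by total RNA sequencing after depletion of ribosomal RNA. The knockout (KO) groups carry an induced, heart-specific loss of Mpc1, a gene for part of the carrier that brings pyruvate into mitochondria, and the controls are labelled wild type (WT). Libraries were taken 8 weeks after induction (WT-8, 5 libraries; KO-8, 4) and 16 weeks after it (WT-16, 5; KO-16, 5). The inducer, the promoter that drives deletion, strain, age and sex, and whether each library came from its own animal, were not given in the sources used here, so that p-values measure the spread between libraries. Time after induction and sequencing run cannot be told apart. In bulk tissue, fewer cells of a type and less RNA per cell cannot be told apart either.

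Acyl-CoA thioesterases cut the thioester bond of fatty acyl-CoA and release a free fatty acid and coenzyme A (CoA), which opposes the acyl-CoA synthetases. In heart muscle, which burns mostly fatty acids, they are among the enzymes that affect how much acyl-CoA and free CoA a compartment holds. Acot1 to Acot6 share an alpha/beta-hydrolase fold and differ in compartment, with Acot1 in the cytosol and Acot2 in the mitochondrial matrix. Acot7 to Acot13 are built on the unrelated hot-dog fold. Acot1 and Acot2 are known targets of PPAR-alpha, the nuclear receptor that senses fatty acids.

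Acot1 and Acot2 lie next to each other on chromosome 12 of GRCm38, in a row of 6 genes on the plus strand (83987861 to 84111349) in the order Acot2, Acot1, Acot4, Acot3, Acot5 and Acot6. Acot2 (ENSMUSG00000021226, 83987861 to 83993873) ends 15.6 kb before the start of Acot1 (ENSMUSG00000072949, 84009490 to 84018371). The coding sequences of the longest GENCODE M21 protein-coding transcripts, 1260 bases for Acot1 and 1362 for Acot2, were identical at 95.5% of 1239 aligned bases. Their starts are shown because the coding sequences differ in length there. The first 60 coding bases of Acot1 (chr12:84009510-84009569) and the first 183 of Acot2 (chr12:83987902-83988084) follow 5′ to 3′, with the bases that are identical at the 60 aligned positions in capitals, 50 of them. Acot2 has 123 coding bases before the aligned part, where its mitochondrial targeting sequence lies.
Acot1: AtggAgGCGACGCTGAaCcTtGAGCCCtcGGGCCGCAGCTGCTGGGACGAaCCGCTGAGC
Acot2: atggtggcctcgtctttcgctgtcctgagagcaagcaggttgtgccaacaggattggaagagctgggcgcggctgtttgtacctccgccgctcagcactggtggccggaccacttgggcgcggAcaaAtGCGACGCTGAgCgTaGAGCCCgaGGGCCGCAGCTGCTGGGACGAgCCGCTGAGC

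The longest coding stretch that both genes share without a mismatch had 273 bases, within a single exon of each gene (chr12:84017006-84017278 in Acot1 and chr12:83992728-83993000 in Acot2, plus strand). It is shown because 51-base reads that fall wholly inside it match both genes equally.
Shared stretch: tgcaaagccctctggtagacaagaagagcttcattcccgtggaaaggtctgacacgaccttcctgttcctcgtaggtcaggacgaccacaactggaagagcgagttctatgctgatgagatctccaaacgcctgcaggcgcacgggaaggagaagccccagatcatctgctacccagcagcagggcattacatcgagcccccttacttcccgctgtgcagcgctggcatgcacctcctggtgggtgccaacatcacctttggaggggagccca

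Of the 2222 stretches of 51 bases in the longest Acot1 transcript, 33.3% occurred in a transcript of another gene, and 523 of them in Acot2. For Acot2 that share was 27.4% of 2146. The deposited counting command has no option to count read pairs with several alignments, so the counts of both genes rest on the parts that differ, and a misplaced share between them was not tested. Acot9 shared 19.5% of its stretches with other genes, 332 of 1702 with Acot10. The overlaps of Acot8 with Snx21 (194 stretches) and of Acot11 with Fam151a (1068) lie on opposite strands, and counting was reverse-stranded. Acot7 and Acot13 shared none.

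RefSeq start regions (GRCm38.p6) were available for 6 of the 7 genes, 7 regions in all, Acot13 not among them. Those of Acot1 (chr12:84009252-84009501) and Acot2 (chr12:83987611-83987860) are shown, 250 bases before the start on the plus strand, because these 2 genes fell together at 16 weeks. Capitals mark CCAAT or its reverse ATTGG.
Acot1 upstream: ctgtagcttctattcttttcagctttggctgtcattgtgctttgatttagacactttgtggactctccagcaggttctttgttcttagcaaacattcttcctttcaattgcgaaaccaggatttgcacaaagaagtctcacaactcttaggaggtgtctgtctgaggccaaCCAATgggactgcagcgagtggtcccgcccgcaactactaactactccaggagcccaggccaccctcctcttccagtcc
Acot2 upstream: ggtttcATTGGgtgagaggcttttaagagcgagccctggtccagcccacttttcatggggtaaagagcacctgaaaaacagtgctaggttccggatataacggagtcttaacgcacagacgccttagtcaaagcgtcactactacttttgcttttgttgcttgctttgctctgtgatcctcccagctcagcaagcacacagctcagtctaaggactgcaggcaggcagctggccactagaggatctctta

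CCAAT was found 79 bases before the start of Acot1, and its reverse 244 bases before that of Acot2. On either strand it occurred in 33.8% of the 32851 upstream regions of that length. GGGCGG, in 32.7% of regions, occurred on the minus strand in Acot1 and on neither strand in Acot2. TATAAA, in 12.4% of regions, occurred in neither of them and once in Acot9. The direct repeat 1 element bound by PPAR and RXR pairs, found in 0.137% of regions, was in none of the members' windows. Nor was AGGTCA alone, found in 14.02%. A match as rare as the direct repeat is hardly to be met in so few windows, so nothing follows from its absence. These matches describe letters in short windows only.

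Levels differed widely across the family. Divided by exon length, Acot13 was the highest of the 7 in each group, with 135 ± 5.94 CPM per kb (CPM, read pair counts scaled to library size with TMM factors, per kilobase of exon; SD, n = 5) in WT-8. Acot13, also called Them2, is a small hot-dog thioesterase that associates with mitochondria and binds the lipid carrier Pctp. Acot2 followed with 17.5 ± 4.23 CPM per kb and Acot7, a cytosolic enzyme best known from brain, with 13.5 ± 0.63. The mitochondrial Acot9 had 6.58 ± 0.40 CPM per kb. Acot11, which carries a lipid-binding START domain, had 2.52 ± 0.20. Acot1 had 1.47 ± 0.68 and the peroxisomal Acot8 1.21 ± 0.08. The exon length of Acot1 was 3919 bases over all its annotated transcripts against 2272 in the longest coding one, so its level per kb depends on which length is used. In WT-8, the libraries of neighbours in this order did not overlap, except Acot11 with Acot1 and Acot1 with Acot8.

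**Figure D1:**
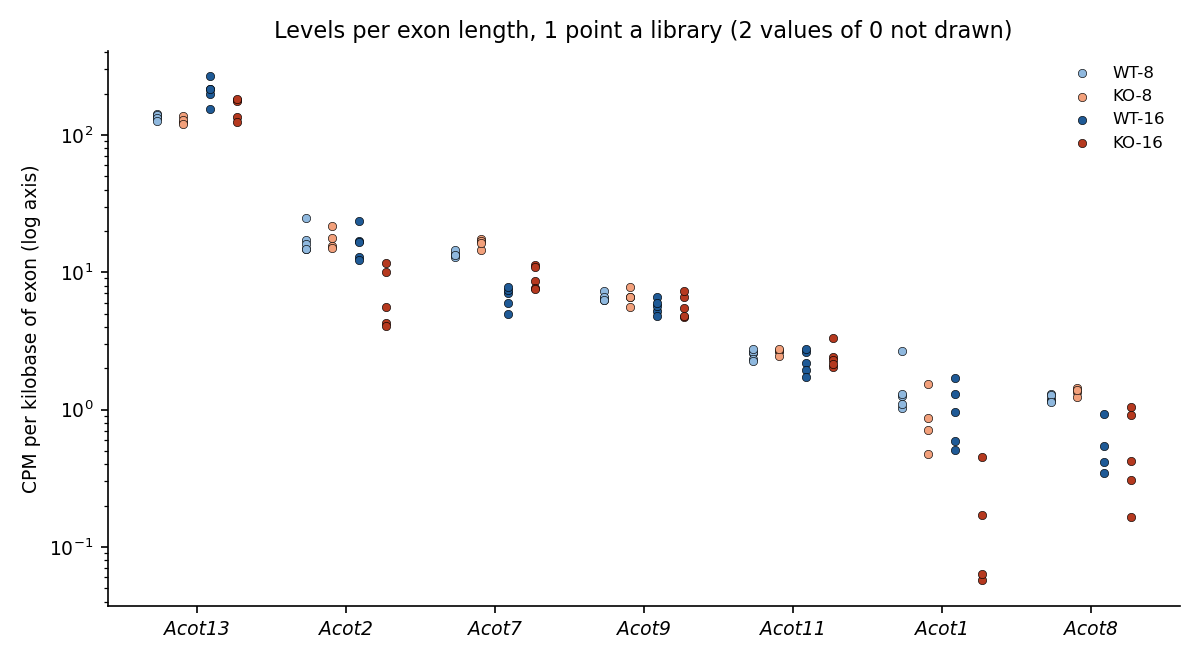
CPM per kilobase of exon on a log axis for the 7 genes, 1 point a library, coloured by group (WT-8, KO-8, WT-16 and KO-16). Acot13 lies above all the others in each group, and the KO-16 points of Acot2 and Acot1 lie below the WT-16 points of the same gene.

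In KO-16, Acot7 (9.16 ± 1.77 CPM per kb, n = 5) stood above Acot2 (7.12 ± 3.47), though the libraries of these neighbours overlapped, and Acot1 was the lowest of the 7 with 0.15 ± 0.18. Acot1 also had the lowest mean of the 7 in KO-8 (0.89, below 1.35 for Acot8), and its libraries overlapped with those of Acot8 in both KO groups. In WT-16, Acot2 (16.4 ± 4.48) and Acot7 (6.63 ± 1.14) did not overlap. Of the summed level per kb of the 7 genes, Acot1 and Acot2 together made up 5.83% to 7.88% in WT-16 libraries and 2.06% to 5.81% in those of KO-16, groups that did not overlap by a narrow margin. In WT-8 the share was 9.14% to 15.6%, and in KO-8 9.28% to 13.6%.

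Mpc1 had 63.7 to 82.4 CPM in WT-8, 8.42 to 11.99 in KO-8, 61.7 to 83.9 in WT-16 and, in KO-16, 9.04 to 26.2, where replicate 1 was the highest. Libraries held 16528626 to 27516660 counted read pairs at 8 weeks and 8632127 to 26914074 at 16 weeks. At 16 weeks, 18S ribosomal RNA took 6.88% to 39.1% of counts in WT and 1.71% to 29.96% in KO, against at most 0.0666% at 8 weeks. Sex-linked transcripts marked WT-16 replicate 5 and KO-16 replicate 4 as male, the remaining libraries as female. Markers of cardiomyocytes defined the tissue, with Myh6 at 11339 CPM or more in each library, and summed liver markers were at most 3.99 CPM. The atrial marker Myl7 reached 2.89 CPM in WT-8, 0.53 in KO-8, 87.8 in WT-16 and 48.1 in KO-16. Summed atrial markers, Nppa among them, were 24.3 to 51.8 CPM in WT-8 and 111 to 208 in KO-8. At 16 weeks these sums were 27.1 to 550 CPM in WT and 248 to 2353 in KO. The part of atrial tissue in the 16-week values was not tested. Summed adipocyte markers reached 1.08 CPM at 8 weeks, 46.4 CPM in WT-16 (replicate 3) and 8.81 CPM in KO-16.

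The 16-week comparison asked how the ventricle had changed 16 weeks after loss of the carrier. Acot1 and Acot2 fell, the other 5 genes did not pass the threshold, and each of the 2 calls was lost in 8 of the 10 fits that left out 1 library, with the direction kept. Of the 7 genes, 0 were called higher and 2 lower at an adjusted p under 0.05, while of the 15503 genes tested 2.55% were called, 1.72% higher and 0.832% lower. Nothing is read from that contrast of shares, since the 7 were selected on these libraries.

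Acot1 had 5.06, 1.99, 3.73, 6.66 and 2.30 CPM in WT-16 replicates 1 to 5, from 20, 11, 81, 40 and 10 read pairs. In KO-16 replicates 1 to 5 it had 1.75, 0.22, 0.25, 0 and 0.66 CPM, from 25, 8, 4, 0 and 4 read pairs. No KO library reached the lowest WT library, but the margin was narrow. Replicate 1, the highest KO library, was at 1.75 CPM, against 1.99 CPM from 11 read pairs in WT-16 replicate 2. The 3 counts that a count of 0 allows correspond to 0.37 CPM in replicate 4 (this floor covers counting error only). The log2 fold change was -2.78 (SE 0.63, 95% interval -4.13 to -1.43, edgeR adjusted p = 0.0371), a level 6.87-fold lower.

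Acot2, the more abundant of the pair (16.4 CPM per kb against 1.01 in WT-16), had a smaller fold change. It had 28.3, 37.2, 27.1, 36.1 and 51.7 CPM in WT-16 and 25.5, 9.43, 12.3, 8.92 and 21.9 CPM in KO-16 replicates 1 to 5. The groups did not overlap, but replicate 1 of KO-16 was close to the lowest WT library. Its log2 fold change was -1.21 (SE 0.29, 95% interval -1.83 to -0.60, edgeR adjusted p = 0.0413), a level 2.32-fold lower. Among all genes tested, 4.29% had groups that did not overlap at 16 weeks, and among the 7 these 2 did.

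**Figure D2:**
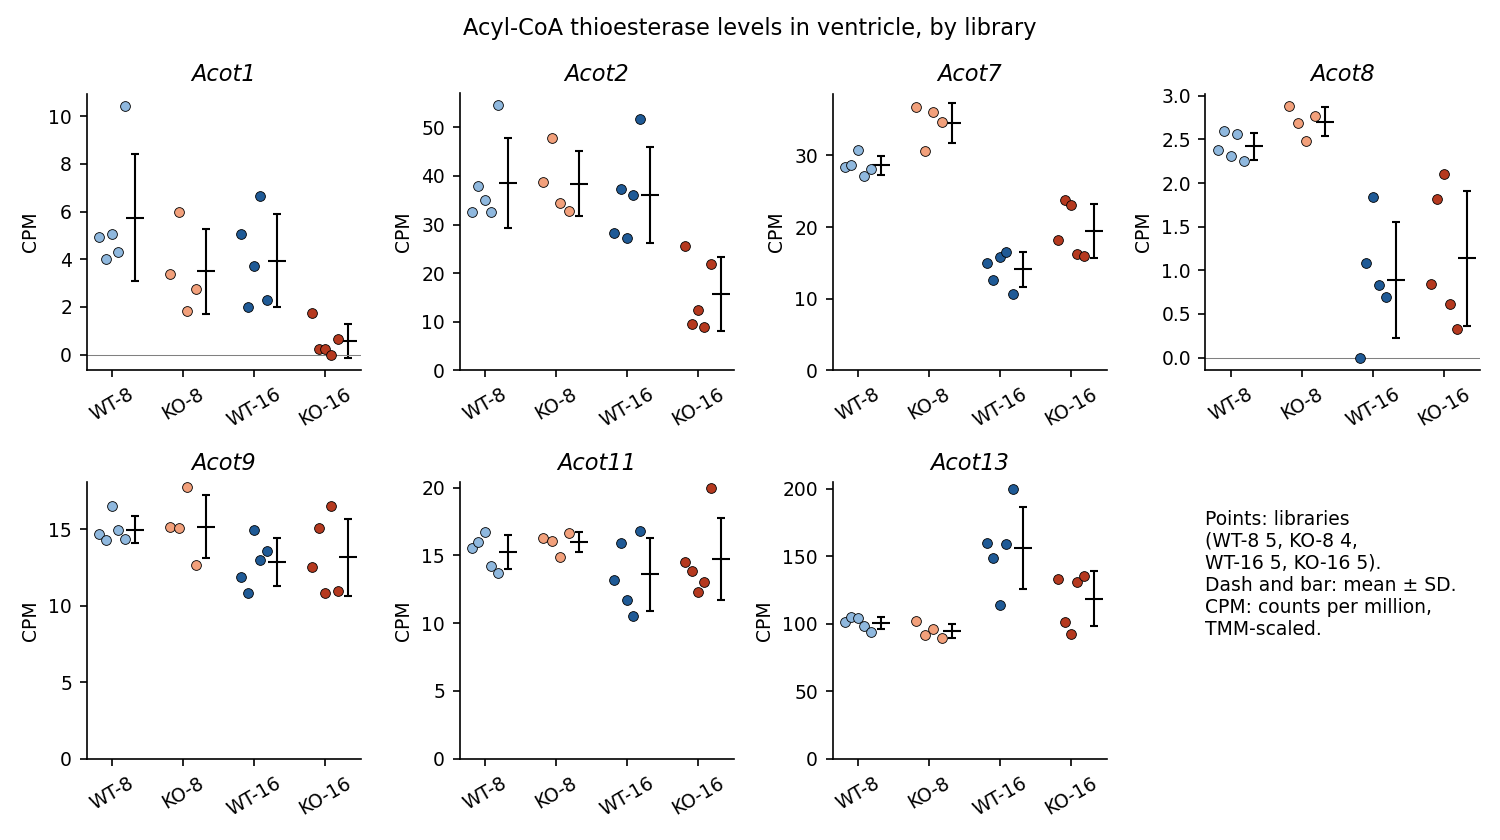
CPM of each of the 7 genes in each library by group, on linear axes that include 0, with the mean and SD of each group beside the points. KO-16 libraries of Acot1 and Acot2 lie below all WT-16 libraries, while the groups of the other 5 genes overlap at 16 weeks.

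Both calls were lost when single libraries were left out. Without any 1 of the 5 WT-16 libraries, or without KO-16 replicate 2, 3 or 4, adjusted p was 0.0595 to 0.110 for Acot1 and 0.0502 to 0.114 for Acot2, with log2 fold changes of -2.94 to -2.45 and -1.30 to -1.05. Without KO-16 replicate 1 they were -3.93 (adjusted p = 0.000821) and -1.49 (adjusted p = 0.00299), and without replicate 5 -2.82 (0.0232) and -1.35 (0.0173).

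Replicate 1 of KO-16 had the most Mpc1 of its group (26.2 CPM), the highest Acot1 (1.75 CPM) and the highest Acot2 (25.5 CPM). It also had the highest summed cardiomyocyte markers of the 5 KO-16 libraries, 51496 CPM, and the lowest summed fibroblast markers, 846 CPM. Replicate 5 was next in Mpc1 (15.95 CPM), Acot1 (0.66 CPM), Acot2 (21.9 CPM) and cardiomyocyte markers (44523 CPM). Replicates 2, 3 and 4 had 29227 to 35768 CPM of cardiomyocyte markers and the lowest levels of both thioesterases, with Mpc1 at 9.04, 9.26 and 15.1 CPM. Replicate 4, whose Mpc1 was close to that of replicate 5, had an Acot1 count of 0 and the lowest Acot2 (8.92 CPM). The 18S share of KO-16 replicates 1 to 5 was 12.7%, 1.71%, 5.66%, 29.96% and 26.1%, and replicate 4 was the male one. Whether any of these traits is linked to the levels of Acot1 and Acot2 was not tested. In KO-8, Mpc1 was at 8.42 to 11.99 CPM and Acot2 at 32.8 to 47.8 CPM.

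**Figure D3:**
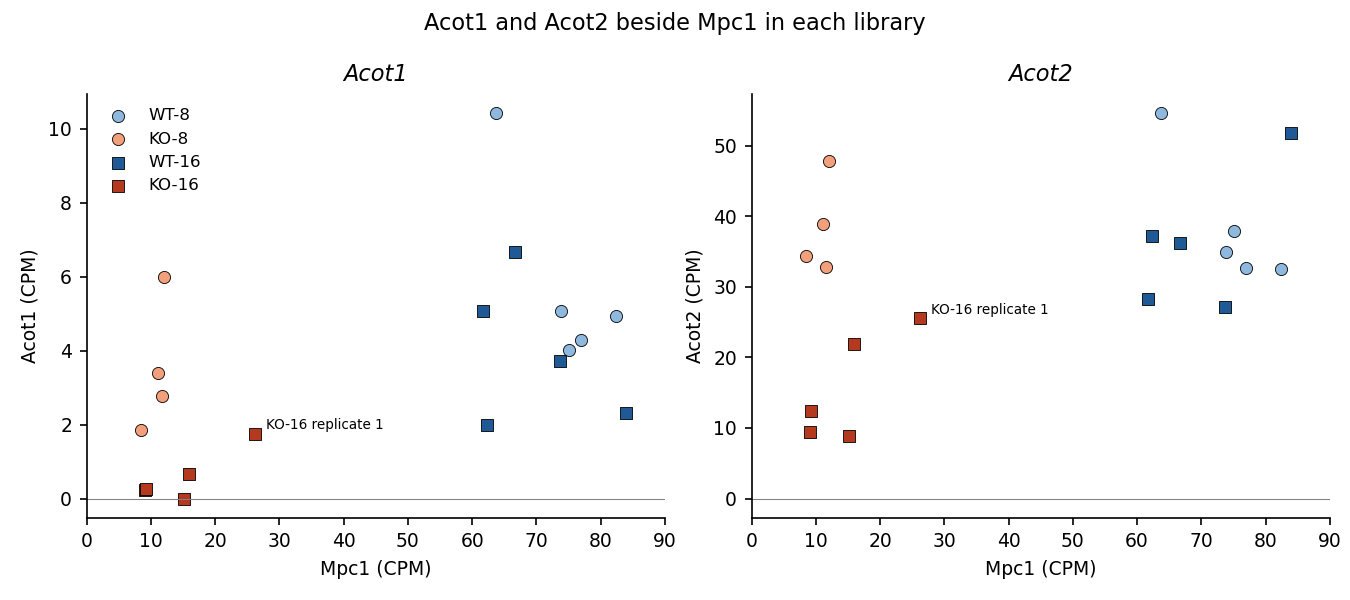
CPM of Acot1 (left) and Acot2 (right) against CPM of Mpc1 in each library, 1 point a library. Mpc1 is 8.42 to 11.99 CPM in KO-8 and 9.04 to 26.2 CPM in KO-16, and Acot2 is 32.8 to 47.8 CPM in KO-8 against 8.92 to 25.5 CPM in KO-16, where replicate 1 has the most of each.

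The summed cardiomyocyte markers (8 of 8 measured) spanned 48370 to 55805 CPM in WT-16 and 29227 to 51496 CPM in KO-16, and none of the 8 passed the threshold there. Summed fibroblast markers were 635 to 888 CPM in WT-16 and 846 to 1634 CPM in KO-16, with 3 of 8 called higher, and endothelial markers 434 to 484 and 484 to 718 CPM, with 1 of 6 called higher. Erythroid markers ranged from 53.1 to 132 CPM in WT-16, whereas KO-16 libraries had 47.4 to 1123 CPM. The part of these marker shifts in the falls of Acot1 and Acot2 was not tested. With the 18S share as a covariate the log2 fold changes were -2.72 (adjusted p = 0.0972) and -1.09 (0.137).

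The remaining 5 genes did not pass the threshold at 16 weeks. Acot7 had 14.9, 12.7, 15.7, 16.5 and 10.6 CPM in WT-16 and 18.2, 23.8, 23.1, 16.2 and 15.95 CPM in KO-16. Of the KO libraries, 3 were above all WT libraries and 2 fell within the range of the WT group. The log2 fold change was 0.47 (SE 0.16, 95% interval 0.12 to 0.81, edgeR adjusted p = 0.112). It passed only without KO-16 replicate 5 (0.53, adjusted p = 0.0493) and in a joint fit to all 19 libraries (0.47, adjusted p = 0.0146).

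Acot13 had 160, 149, 114, 159 and 200 CPM in WT-16 and 133, 101, 92.6, 131 and 136 CPM in KO-16. The groups overlapped, since replicate 3 of WT-16 was below 3 KO libraries. The log2 fold change was -0.40 (SE 0.16, 95% interval -0.73 to -0.06, edgeR adjusted p = 0.152), and a joint fit to all 19 libraries gave -0.40 with an adjusted p of 0.0286.

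Acot9 had a log2 fold change of 0.03 (95% interval -0.31 to 0.36, edgeR adjusted p = 0.940) and Acot11 one of 0.12 (-0.25 to 0.48, adjusted p = 0.717). Their groups overlapped throughout, at 10.8 to 16.5 CPM for Acot9 and 10.5 to 19.9 CPM for Acot11 over the 10 libraries. Acot8 was too low at 16 weeks to resolve a difference: WT-16 libraries had 0 to 1.84 CPM, from 0 to 40 read pairs, and KO-16 libraries 0.33 to 2.10 CPM, from 2 to 65. Its interval, -0.94 to 1.44, was the widest of these 5 (log2 fold change 0.25, adjusted p = 0.816).

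**Figure D4:**
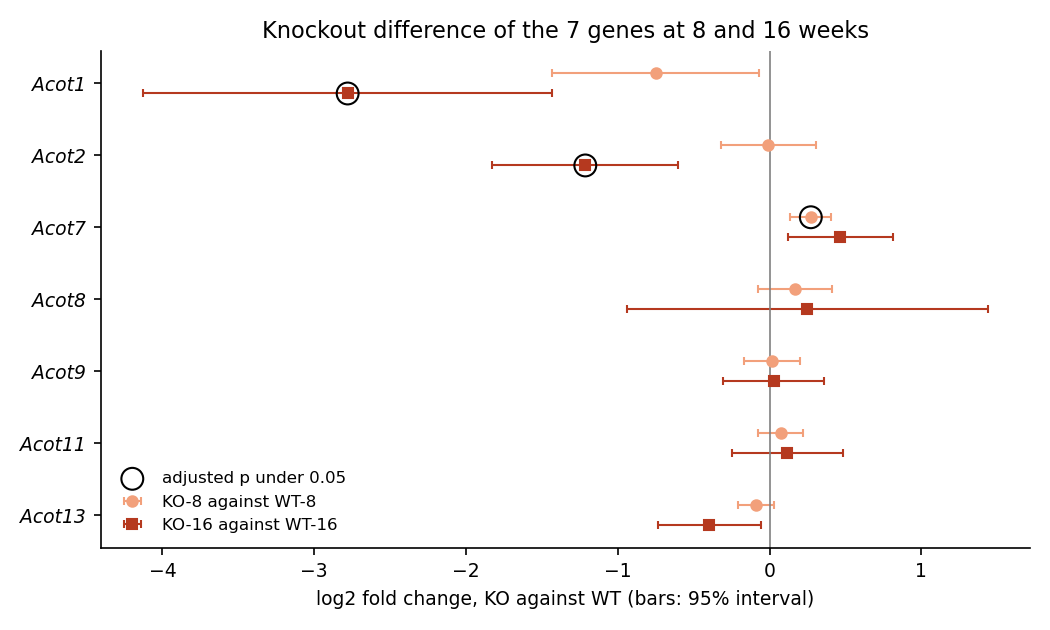
Log2 fold change of KO against WT for each of the 7 genes at 8 weeks (circles) and 16 weeks (squares), with 95% intervals, and rings around values with an adjusted p under 0.05. Rings mark Acot1 (-2.78) and Acot2 (-1.21) at 16 weeks and Acot7 (0.27) at 8 weeks.

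The 8-week comparison asked what had changed earlier. Acot7 rose, by 1.21-fold, and the other 6 genes did not pass the threshold. Thus 1 of the 7 genes was called higher and 0 lower, beside 8.19% of the 15503 genes tested, 4.01% higher and 4.19% lower. Acot7 had 28.3, 28.7, 30.8, 27.2 and 28.2 CPM in WT-8 replicates 1 to 5 and 36.8, 30.6, 36.1 and 34.6 CPM in KO-8 replicates 1 to 4. Of the KO libraries, 3 were above all WT libraries, and replicate 2 lay just under the highest WT library. The log2 fold change was 0.27 (SE 0.06, 95% interval 0.14 to 0.41, edgeR adjusted p = 0.0161). The call held in all 9 fits that left out 1 library (adjusted p = 0.00614 to 0.0481) but not in the fit to all 19 libraries (0.568), where the larger spread at 16 weeks enters: the common coefficient of variation was 0.0936 at 8 weeks, 0.240 at 16 weeks and 0.171 over both. Groups did not overlap for 0 of the 7 genes and for 10.7% of all genes tested. Summed endothelial markers were 528 to 569 CPM in WT-8 and 597 to 672 CPM in KO-8, with 3 of 6 called higher. Fibroblast markers had 4 of 8 called higher, with sums of 1057 to 1124 CPM in WT-8 and 1065 to 1553 CPM in KO-8. Those sums overlapped, and KO-8 replicate 3 had the highest. Smooth muscle and pericyte markers had 3 of 6 called higher, with sums of 681 to 732 and 737 to 927 CPM. Erythroid markers had 1 of 5 called lower, with sums of 430 to 955 CPM in WT-8 and 256 to 568 CPM in KO-8. Of 8 cardiomyocyte markers, 1 was higher and 2 lower, and of 7 macrophage markers 0 were called. The part of these marker shifts in the rise of Acot7 was not tested.

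Acot1 had 4.95, 4.02, 5.06, 4.29 and 10.4 CPM in WT-8 and 3.40, 5.996, 1.85 and 2.77 CPM in KO-8. Replicate 5 of WT-8 stood far above its group, and KO-8 replicate 2 lay above the 4 remaining WT libraries. The log2 fold change was -0.75 (SE 0.32, 95% interval -1.43 to -0.07, edgeR adjusted p = 0.173). It was -0.39 (adjusted p = 0.394) without WT-8 replicate 5 and -1.14 (0.0501) without KO-8 replicate 2, so that single libraries moved it. It passed in 1 of 15 alternatives, the fit of 30405 genes without the filter on low counts (-0.77, edgeR adjusted p = 2.44e-06).

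Acot2 had 32.5, 37.9, 35.0, 32.6 and 54.7 CPM in WT-8 and 38.9, 47.8, 34.3 and 32.8 CPM in KO-8. The group ranges nearly coincided, and the log2 fold change was -0.01 (SE 0.15, 95% interval -0.32 to 0.30, edgeR adjusted p = 0.985). The interval thus excludes a fall of the size seen at 16 weeks. WT-8 replicate 5 and KO-8 replicate 2 were the highest library of their group for Acot1 and for Acot2 alike.

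The remaining 4 genes differed little at 8 weeks. Acot8 was at 2.26 to 2.60 CPM in WT-8 and 2.48 to 2.88 in KO-8, with a log2 fold change of 0.16 (95% interval -0.08 to 0.41, edgeR adjusted p = 0.427). Acot9 was at 14.3 to 16.5 and 12.7 to 17.7 CPM (0.02, interval -0.17 to 0.20, adjusted p = 0.931). Acot11 was at 13.7 to 16.7 and 14.9 to 16.7 CPM (0.07, interval -0.08 to 0.22, adjusted p = 0.598). Acot13 was at 94.2 to 105 and 89.2 to 102 CPM (-0.09, interval -0.21 to 0.03, adjusted p = 0.377). Each of these intervals lies within a 1.5-fold change in either direction.

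The difference of the knockout effect between the times was tested as an interaction over all 19 libraries. No gene of the 7 passed, and 0.0% of all genes tested did (0 by edgeR, with 2000 at an unadjusted p under 0.05, and 31 by DESeq2). Acot2 had an interaction of -1.21 (SE 0.36, 95% interval -1.96 to -0.47, edgeR adjusted p = 0.273) and Acot1 one of -2.12 (SE 0.72, interval -3.62 to -0.61, adjusted p = 0.312). Without KO-16 replicate 1 both passed, at -1.50 (adjusted p = 0.0146) for Acot2 and -3.25 (0.0178) for Acot1, and 603 genes did in all. The interactions of Acot7 (0.20, adjusted p = 0.623), Acot8 (0.05, 0.981), Acot9 (0.00, 0.998), Acot11 (0.05, 0.935) and Acot13 (-0.31, 0.450) were smaller.

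Levels in the WT groups can be set side by side across the 2 times only as values. Acot13 was at 94.2 to 105 CPM in WT-8 and 114 to 200 in WT-16, Acot7 at 27.2 to 30.8 and 10.6 to 16.5, and Acot8 at 2.26 to 2.60 and 0 to 1.84. No test is given, because time, run and the 18S share changed together.

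The 6 remaining members of the family follow. In the chromosome 12 row, Acot6 had 2.33 to 3.24 CPM in WT-8, 2.45 to 2.58 in KO-8, 2.16 to 4.52 in WT-16 and, in KO-16, 2.01 to 3.32. Acot3 and Acot4 stayed at or below 1.08 and 1.163 CPM in each library. Acot5 was counted in a single library, with 1 read pair. Acot10 reached at most 0.37 CPM and Acot12 0.17 CPM. None of Acot3, Acot4 and Acot6 passed the threshold at either time. Of the 5 genes of the row that were tested, Acot1 and Acot2, selected on these libraries, were the ones called at 16 weeks. Acot3 (0 to 10 read pairs in WT-16, 0 to 9 in KO-16) and Acot4 (1 to 13 and 2 to 7) were too low there to resolve a difference. Their log2 fold changes were -0.37 (interval -2.22 to 1.47) and -0.54 (-1.90 to 0.81). Both intervals include the Acot2 value of -1.21. The interval of Acot6 (-0.34, interval -0.90 to 0.23) excludes it.

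**Figure D5:**
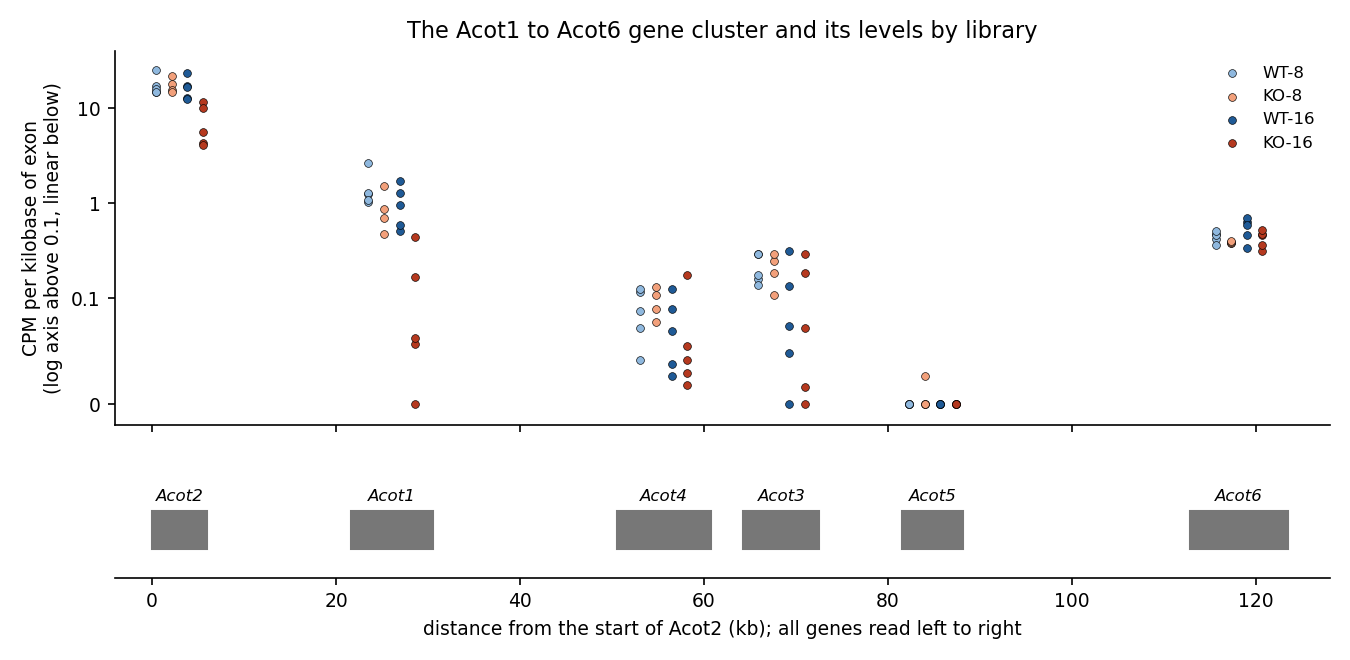
Map of the 6 genes of the chromosome 12 row by distance in kb from the start of Acot2 (below), and CPM per kilobase of exon in each library by group (above, a log axis over 0.1 and linear under it). The KO-16 points lie below the WT-16 points for Acot2 and Acot1, whereas those of Acot4, Acot3 and Acot6 overlap with WT-16 and Acot5 is at or near 0.

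The 10 other thioesterases tested were Acot3, Acot4, Acot6, Them4, Them6, Ppt1, Ppt2, Lypla1, Lypla2 and Fasn. At 8 and 16 weeks 0 of them were called, beside 8.19% and 2.55% of all genes tested. Nothing is read from that count in so few genes. Their median log2 fold change was -0.07 at 8 weeks and -0.15 at 16 weeks, beside -0.01 and 0.02 over all genes tested. Ppt1, the lysosomal palmitoyl-protein thioesterase, had 39.0 to 46.0 CPM in WT-16 against 28.0 to 36.5 CPM in KO-16, groups that did not overlap, with a log2 fold change of -0.35 (SE 0.11, edgeR adjusted p = 0.0857). At 8 weeks it was -0.12 (adjusted p = 0.169). Fasn, fatty acid synthase, whose last domain is a thioesterase, had log2 fold changes of -0.29 (SE 0.09) and, at 16 weeks, -0.64 (SE 0.36), with adjusted p values of 0.0653 and 0.293. Replicate 3 of WT-16, the library with 46.4 CPM of adipocyte markers, had 35.1 CPM of Fasn against 8.16 to 10.8 in the other 4 of its group, and without it the 16-week value was 0.0816 (adjusted p = 0.821). Lypla2, a cytosolic acyl-protein thioesterase, was at 0.44 (SE 0.30, adjusted p = 0.396) at 16 weeks.

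Genes of the surrounding pathways were counted from lists drawn up with earlier results of these data known. Each count is read beside the shares of all genes tested, 1.72% higher and 0.832% lower at 16 weeks and 4.01% higher and 4.19% lower at 8 weeks. Of 24 PPAR-alpha targets measured (28 listed, thioesterases left out), 0 were higher and 3 lower at 16 weeks, with a median log2 fold change of -0.66. Ehhadh, the peroxisomal bifunctional enzyme, fell by 1.84 on the log2 scale (SE 0.31, edgeR adjusted p = 0.0121). Its call held in all 10 fits that left out 1 library and was lost in 3 of 11 other alternatives (adjusted p up to 0.0991). Ehhadh was called lower at 8 weeks as well (-0.65, SE 0.17, edgeR adjusted p = 0.0282). Pdk4, the kinase that shuts down pyruvate dehydrogenase, changed by -2.24 (SE 0.48, adjusted p = 0.0321) and Slc25a20, the carnitine-acylcarnitine carrier, by -0.68 (SE 0.17, adjusted p = 0.0466). Those calls held in 3 and 2 of the 10 fits. At 8 weeks 0 were higher and 4 lower, with a median of -0.09. Ech1, an isomerase of unsaturated fatty acids, fell by 0.37 (SE 0.09, adjusted p = 0.0176), and its call held in 9 of 9 fits that left out 1 library.

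Of 12 nuclear receptors and coactivators measured, 0 were called at 16 weeks, and 0 higher and 2 lower at 8 weeks. Ppargc1a, the PGC-1alpha coactivator, fell at 8 weeks (-0.39, SE 0.11, edgeR adjusted p = 0.0403) and did not pass at 16 weeks (-0.91, SE 0.36, adjusted p = 0.148). The receptor Esrrb was at -0.34 (adjusted p = 0.0479) at 8 weeks. These 8-week calls held in 3 and 1 of 9 fits that left out 1 library. Ppargc1b (-0.56, adjusted p = 0.153) and Esrrg (-0.27, 0.185) did not pass at 16 weeks.

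The acyl-CoA synthetases make the substrate that thioesterases cut. Of 13 measured (17 listed), 1 was higher and 1 lower at each time. Acsl6 rose both early (log2 fold change 0.53, SE 0.10, edgeR adjusted p = 0.00557) and late (0.83, SE 0.19, adjusted p = 0.0372). Acsl1, the main synthetase of heart, fell at 16 weeks (-0.65, SE 0.15, adjusted p = 0.0437), and Acsl3 at 8 weeks (-0.48, SE 0.10, adjusted p = 0.00860). The calls of Acsl6 and Acsl1 at 16 weeks held in 2 of 10 fits each, those at 8 weeks in 9 of 9. Acss3 was at -1.62 (adjusted p = 0.0764) at 16 weeks.

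Of 12 genes of CoA synthesis and breakdown measured (13 listed), 0 were higher and 1 lower at 16 weeks, and 1 higher and 0 lower at 8 weeks. Nudt7, a peroxisomal hydrolase of CoA and acyl-CoA, fell at 16 weeks (-0.75, SE 0.15, edgeR adjusted p = 0.0241, held in 3 of 10 fits). Slc25a42, which carries CoA into mitochondria, was at -0.86 (adjusted p = 0.0534) and Pank1, a pantothenate kinase at the head of CoA synthesis, at -0.83 (0.0534). Ppcs, a later enzyme of that pathway, rose at 8 weeks (0.39, adjusted p = 0.0314, held in 3 of 9 fits), and Pank2 was at -0.14 (0.148).

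Of 9 partners of thioesterases measured (10 listed), genes that use, carry or compete for the same acyl-CoA, 0 were higher and 1 lower at 16 weeks. Crat, carnitine acetyltransferase, fell (-0.70, SE 0.17, edgeR adjusted p = 0.0460, held in 2 of 10 fits). Ucp3, a mitochondrial carrier often discussed with Acot2, was at -2.24 (SE 0.62, adjusted p = 0.0646), and Abcd3, a peroxisomal acyl-CoA transporter, at -0.49 (0.0717). At 8 weeks 2 were higher and 0 lower: Abcd2, another peroxisomal transporter (0.56, SE 0.14, adjusted p = 0.0268), and Pctp, the phosphatidylcholine carrier that binds Acot13 (0.40, SE 0.11, adjusted p = 0.0361). They held in 4 and 2 of 9 fits.

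The genes whose centred log2 CPM (prior count 2) over the 19 libraries was nearest to each of the 7 were found among 11663 tested genes with a mean of at least 1 CPM, by the root mean square difference. For Acot1 the nearest were Lgals4 (0.64), Ucp3 (0.75) and Ces1d (0.75), nearer than Acot2 (1.08). Lgals4, a galectin, had a log2 fold change of -2.14 (SE 0.49, edgeR adjusted p = 0.0383) at 16 weeks and -0.50 (adjusted p = 0.124) at 8 weeks. For Acot2 they were Slc25a42 (0.29), Klhl38 (0.30) and Slc38a4 (0.33). For Acot7 they were Ap1b1 (0.14), Higd2a (0.15) and Lamtor1 (0.16), and for Acot8 Sco2 (0.40), Crip1 (0.43) and Tmem115 (0.45). For Acot9 they were Psmb7 (0.10), Ppm1b (0.11) and Sub1 (0.12), for Acot11 Sfswap (0.15), Plekhg3 (0.15) and Cdc23 (0.16), and for Acot13 Tmem182 (0.09), Hnrnpu (0.10) and Ccdc90b (0.10). Among the 7 themselves the closest pair was Acot9 and Acot11 (0.30) and the most distant Acot1 and Acot8 (1.89). The libraries share depth and run within a time point, which these distances contain. Each nearest gene was picked on these same libraries, so the knockout differences given for Lgals4 are no independent result.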

How the data were processed

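Counts were those deposited by the authors, whole read pairs per gene from featureCounts 1.6.3 (paired, reverse-stranded), on GRCm38 with Ensembl 96, per the file headers. Cutadapt 1.16, FastQC, STAR, RSEM and SAMtools are named in the submitters' processing notes without role. Each 16-week sample had 2 files, which were summed. No column of another sample was used and no library was left out. Each time was fitted on its own libraries with edgeR 4.0.16 (quasi-likelihood, TMM factors and filterByExpr over all 19 libraries, Benjamini-Hochberg adjustment, threshold 0.05) in R 4.3.3, the interaction on all libraries. SEs were derived from each log2 fold change and its F statistic. CPM are counts over library total times TMM factor. Alternatives used DESeq2 1.42.0 and limma 3.58.1. The code was tested on simulated data. Python 3.11.15, numpy 2.4.6, pandas 2.3.3, Biopython 1.88 and matplotlib 3.10.9 did the rest, with GENCODE M21 and RefSeq. Members and lists were chosen with earlier results of these data known. The 7 members are all described, and from each list up to 3 genes at 16 weeks and 2 at 8 weeks with the smallest adjusted p are named, except that a gene this rule selects is not reported here.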

Additional observations from a re-analysis of the deposited data

Results flagged for a closer look

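Of 28 sets of libraries tested (7 genes in 4 groups), 2 held a library whose gap to its nearest neighbour was large for the range of its group, and chance gives about 1 such flag in 20 groups. Acot1 was at 10.43 CPM in WT-8 replicate 5, against 4.02 to 5.06 CPM in the other 4 libraries of the group, a gap of 0.838 of the range. Acot2 was at 54.65 CPM in the same library, against 32.5 to 37.9 CPM in the other 4, a gap of 0.757 of the range. Without that library the log2 fold changes of KO-8 against WT-8 were -0.39 (edgeR adjusted p = 0.394) for Acot1 and 0.16 (0.401) for Acot2.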

How the results depend on the processing

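No paired analysis was possible because the libraries carry running numbers of their own and the groups share none. Each of the 53 fold changes selected by the naming rule was recomputed under each alternative, 1049 values in all: 1005 kept their direction, 44 changed it, 134 lost the call and 43 gained it. The cause of these changes was not tested. Without any filter on low counts the genes called were 1050 at 16 weeks and 43 in the interaction, and 2 of the 7 were called at 8 weeks. DESeq2 called 1195 at 16 weeks and 31 in the interaction. The fit to all 19 libraries called 31 at 8 weeks, with 0 of the 7, and 3181 at 16 weeks, with 4 of the 7. At 16 weeks limma-voom called 113 higher and 275 lower, against 267 and 129 by edgeR. Without the male libraries 12 genes and 0 of the 7 were called, and with the 18S share as covariate 33 and 0. The later file of each sample alone left 1 of the 7, with Acot1 at -2.52 (adjusted p = 0.0604). Without the male libraries Acot1 was at -2.66 (0.147) and Acot2 at -0.91 (0.206). Leaving out each library in turn gave 37 to 1864 genes and 0 to 3 of the 7 at 16 weeks, and 0 to 603 genes and 0 to 2 of the 7 in the interaction, the highest without KO-16 replicate 1 (603) and replicate 5 (113).

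The sign changes were in values that did not pass the threshold. Acot2 at 8 weeks became 0.0045 with DESeq2 and 0.0022 with limma-voom, and spanned -0.13 to 0.16 with a library left out. Acot9 then spanned -0.066 to 0.0966 at 8 weeks. At 16 weeks Acot8 was -0.0592 with the earlier files, -0.41 with the 18S covariate and -0.48 in the 4 WT and 2 KO libraries over 20% 18S, a subset chosen after seeing the data, where Fasn was 0.0172 and Lypla2 -0.0693. Acot9 was -0.0161 with limma-voom, -0.0604 with the later files and -0.0387 without males. With a library left out Acot8 spanned -0.0316 to 0.84, Acot9 -0.0605 to 0.11, Acot11 -0.0035 to 0.20 and Fasn -0.79 to 0.0816. The interaction of Acot8 was -0.18 with the earlier files and -0.54 with the covariate. That of Acot9 was -0.0043 with RLE factors, -0.0009 without mitochondrial and rRNA genes, -0.0058 with DESeq2, -0.0303 with limma-voom, -0.0302 with a weight per time point, -0.0903 with the later files, -0.0693 without males and -0.0213 with the covariate. With a library left out these spanned -0.20 to 0.74 for Acot8, -0.079 to 0.0871 for Acot9 and -0.0624 to 0.13 for Acot11. Of the 7, Acot1 (0 to 81 read pairs) and Acot8 (0 to 65) had the lowest counts at 16 weeks.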
